A study of Mus musculus with 16 samples.

Results

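The genes of catecholamine synthesis, storage and breakdown were followed through 16 mouse adrenal RNA-seq libraries. The 9 genes are Th, Ddc, Dbh and Pnmt, which encode the enzymes of synthesis, Slc18a1, Slc18a2 and Slc6a2, which encode transporters, Gch1, which supplies the cofactor of the first enzyme, and Maoa, which encodes a degrading enzyme. They were chosen by name, as the Ensembl identifiers of the deposited count table that GENCODE M21 pairs with these symbols, and they make up 9 of the 54838 genes of that table. The study sequenced total RNA of adrenal glands from 4-week-old mice of mixed genetic background, with 4 individual mice in each of 4 groups. Both sexes were sampled, and in each sex control mice were set beside mice labelled Rspo1 GOF (gain of function). Rspo1 belongs to the R-spondins, secreted factors that amplify WNT signals. The labels name neither the promoter or cell type that drives the Rspo1 GOF allele nor any allele that the controls carry, and both limit what the groups stand for. Each library is a different animal, so the spread within a group is a spread between mice.

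Catecholamines are made in the adrenal medulla by chromaffin cells, which derive from the neural crest and lie inside the steroid-producing cortex. Tyrosine is converted to L-DOPA by tyrosine hydroxylase, L-DOPA to dopamine by the decarboxylase, dopamine to noradrenaline by dopamine beta-hydroxylase inside the secretory granule, and noradrenaline to adrenaline by phenylethanolamine N-methyltransferase. Vesicular monoamine transporters load the amines into granules, the noradrenaline transporter takes them back up at the cell surface, and monoamine oxidases break down what stays in the cytosol.

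Library totals ran from 31275146 to 43003968 counts. Rspo1 itself lay between 353 and 971 CPM (counts scaled to a library total of 1000000, with TMM factors) in the 8 GOF libraries and between 3.19 and 48.2 CPM in the 8 controls, so every library matched its genotype label. The tissue label was matched by the markers: 6 cortex markers summed to 28904 CPM or more in every library, and 4 medulla markers (the granule proteins Chga, Chgb and Scg2 and the lineage factor Phox2a of chromaffin cells) summed to 4582 to 10625 CPM in female controls and 7802 to 11027 CPM in male controls. In GOF libraries the same medulla sum was 197 to 722 CPM in females and 391 to 844 CPM in males. Of the other cell types checked, 3 Schwann cell markers summed to 5.44 to 11.4 CPM in female and 13.4 to 66.3 CPM in male controls against 1.04 to 2.40 CPM in all 8 GOF libraries, and 5 adipocyte markers summed to 1356 to 3061 CPM in controls against 242 to 693 CPM in GOF libraries. The sum of 6 neuron markers, chosen after their values were seen, was 32.3 to 63.7 CPM in female and 65.8 to 896 CPM in male controls, against 3.16 to 10.3 CPM in female and 4.98 to 7.76 CPM in male GOF libraries. The share of counts from mitochondrial genes was 3.55 to 5.33% in controls, 1.75 to 2.93% in female GOF and 2.92 to 3.77% in male GOF libraries. The part of these co-moving values in the results was not tested. One library stands apart: male control 2 held liver transcripts (5 markers summing to 7857 CPM) and raised neuron and Schwann cell transcripts. Female controls 1 and 3 held kidney tubule transcripts, up to 931 CPM over 6 markers.

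All 9 genes passed the filter on low counts and were among 18214 genes tested with edgeR's quasi-likelihood test, with p-values adjusted over all of them by Benjamini-Hochberg. In females 8 of the 9 fell with Rspo1 GOF and 1 rose, in a comparison in which 20.6% of all tested genes fell and 19.0% rose (39.6% changed). In males 8 of the 9 fell and none rose, with 21.8% of tested genes lower and 15.2% higher (36.9% changed). In each sex those that fell were the 4 synthesis enzymes, the 3 transporters and Gch1. Maoa was the member that rose in females. The median log2 fold change of the 9 was -3.25 in females and -3.78 in males, while the median over all tested genes was 0.05 and 0.01. GOF and control libraries did not overlap for any of the 9 in females, with 8 lower and 1 higher, beside 37.8% of tested genes (20.4% lower and 17.4% higher). In males 7 of the 9 did not overlap, all lower, beside 33.1% of tested genes (19.1% lower and 14.0% higher). In bulk tissue, a smaller share of cells of a type and less RNA per cell cannot be told apart, and this holds for every value given here. CPM is a share of a library and does not measure an amount per gland.

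**Figure D1:**
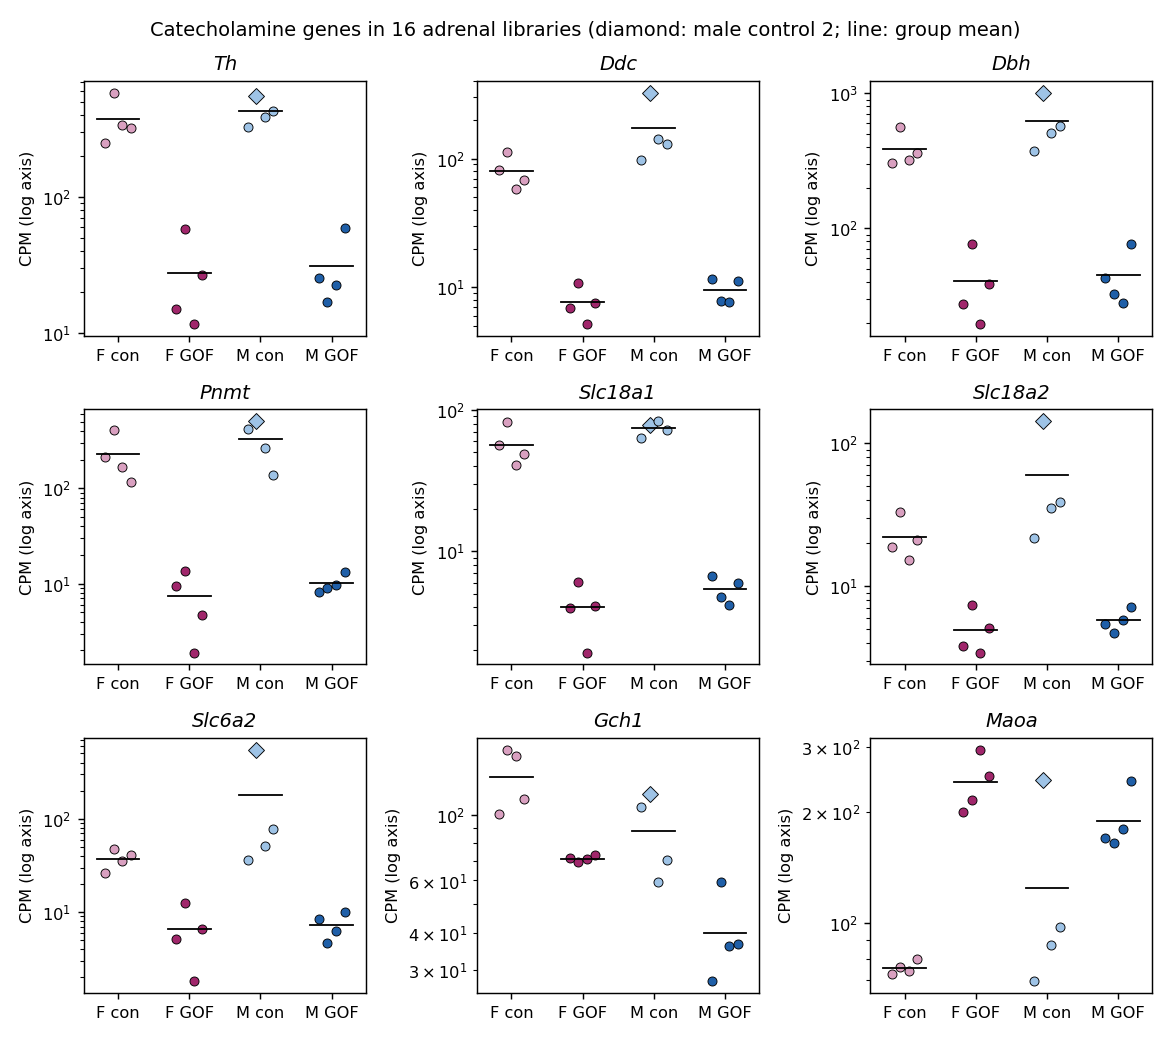
CPM on log axes for the 9 genes in each library, by group (F, female; M, male; con, control), with group means as lines and male control 2 as a diamond. For the 4 enzymes and 3 transporters every GOF library lies below every control of its sex, Gch1 shows a smaller step, and Maoa is higher in GOF libraries except that male control 2 reaches 244 CPM.

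Th (ENSMUSG00000000214; GRCm38 chromosome 7, 142892752 to 142931128, minus strand) encodes tyrosine hydroxylase, the rate-limiting enzyme of catecholamine synthesis. Its level was 249, 583.5, 335 and 318 CPM in the 4 female controls and 15.0, 57.6, 11.5 and 26.4 CPM in the female GOF libraries. Male controls held 328, 553.8, 387 and 427 CPM, and male GOF libraries 25.2, 17.0, 22.6 and 59.2 CPM. The lowest control thus stood several times above the highest GOF library in each sex, and 1 GOF library of each sex was above the others. The means were 371 ± 146 CPM against 27.7 ± 21.0 CPM in females (SD, n = 4 each), 13.4-fold lower, and 424 ± 95.7 CPM against 31.0 ± 19.1 CPM in males, 13.7-fold lower. On the log2 scale Th fell by 3.74 ± 0.53 (SE) in females (adjusted p = 9.35e-05) and by 3.78 ± 0.53 in males (adjusted p = 7.49e-05).

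The Th promoter is shown because a cAMP response element near the start is a textbook regulatory site of this gene. RefSeq gives promoter windows (GRCm38.p6) for 6 of the 9 genes: Th, Ddc, Dbh, Slc18a2, Gch1 and Maoa. Ddc has windows for 2 starts, which makes 7 windows. In the 250 bases before each start, short motifs were searched as letters on both strands. The full palindromic CRE, TGACGTCA, occurred among the 6 genes in the Th window only, at bases 45 to 38 before the start, and in 1.5% of 32851 promoters of the same length. GENCODE M21 places the 30 bases around it in no exon and inside introns of 2 longer Th transcripts that start further upstream. These bases (chr7:142900022-142900051, minus strand, 5′ to 3′, the motif in capitals) read
Th: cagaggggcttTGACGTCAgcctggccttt
The shorter TGACG, which is part of the full CRE and so overlaps it in Th, was also found in the Dbh, Gch1 and Maoa windows and in 17.8% of all promoters. The AP-1 letters TGANTCA were present in the Th window and the upstream Ddc window and in 6.7% of promoters. None of the 7 windows held GCGGGGGCG or GCGTGGGCG (letters of EGR1 sites, in 2.6% and 0.536% of promoters). A match describes letters in a window and says nothing of binding.

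Ddc (ENSMUSG00000020182; chromosome 11, 11814101 to 11898144, minus strand) encodes the aromatic L-amino acid decarboxylase that makes dopamine. Female controls held 81.8, 113, 57.6 and 68.8 CPM and female GOF libraries 6.95, 10.9, 5.16 and 7.63 CPM. In males the controls held 98.1, 325, 142 and 129.7 CPM and the GOF libraries 11.7, 7.85, 7.73 and 11.3 CPM. Groups did not overlap in either sex, and male control 2, at 325 CPM, was well above every other control. The fall was 10.5-fold in females (log2 fold change -3.39 ± 0.37, adjusted p = 1.24e-05) and 18-fold in males (-4.17 ± 0.38, adjusted p = 2.12e-06), or 12.8-fold in males without male control 2.

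Dbh (ENSMUSG00000000889; chromosome 2, 27165233 to 27183200, plus strand) encodes dopamine beta-hydroxylase, which makes noradrenaline within the granule. It measured 306, 566, 321 and 361 CPM in female controls against 27.4, 76.8, 19.5 and 39.1 CPM in female GOF libraries. Male controls held 376, 1014, 512 and 576 CPM, and male GOF libraries 43.1, 32.7, 28.2 and 77.0 CPM. Again no GOF library reached a control. Group means differed 9.55-fold in females (-3.25 ± 0.46 on the log2 scale, adjusted p = 9.68e-05) and 13.7-fold in males (-3.78 ± 0.47, adjusted p = 2.82e-05; 10.8-fold without male control 2).

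Pnmt (ENSMUSG00000038216; chromosome 11, 98386450 to 98388181, plus strand) encodes the enzyme that turns noradrenaline into adrenaline. Among the 9 genes its decrease was the largest in both sexes. Female controls held 215, 414, 166 and 117 CPM and female GOF libraries 9.43, 13.6, 1.88 and 4.71 CPM. Male controls held 417, 508, 267 and 139 CPM and male GOF libraries 8.24, 8.91, 9.71 and 13.4 CPM. Controls varied widely among themselves, and even so the lowest control stood well above the highest GOF library. The mean fell from 228 ± 130 to 7.42 ± 5.19 CPM in females (30.8-fold; log2 fold change -4.93 ± 0.61, adjusted p = 3.27e-05) and from 333 ± 163 to 10.1 ± 2.29 CPM in males (33.1-fold; -5.05 ± 0.61, adjusted p = 2.06e-05). Of all tested genes, 0.598% in females and 0.796% in males had a lower fold change than Pnmt.

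Slc18a1 and Slc18a2 encode the vesicular monoamine transporters VMAT1, the form of neuroendocrine cells, and VMAT2, the form of neurons that is also made by chromaffin cells. Slc18a1 (ENSMUSG00000036330; chromosome 8, 69037711 to 69089235, minus strand) measured 56.5, 81.6, 40.7 and 48.7 CPM in female controls and 3.97, 6.06, 1.91 and 4.08 CPM in female GOF libraries. Male controls held 63.4, 77.6, 83.3 and 72.4 CPM and male GOF libraries 6.73, 4.77, 4.18 and 6.01 CPM. Male control 2 lay within the range of the other male controls for this gene. Slc18a1 was 14.2-fold lower in female GOF adrenals (-3.82 ± 0.30, adjusted p = 1.06e-06) and 13.7-fold lower in male GOF adrenals (-3.77 ± 0.30, adjusted p = 8.07e-07). Its annotated span overlaps the start of Atp6v1b2 on the other strand. Atp6v1b2 had 93810 counts over the 16 libraries, and whether counting used strand is not given in the sources used here.

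Slc18a2 (ENSMUSG00000025094; chromosome 19, 59260896 to 59296012, plus strand) started lower and lost less. Female controls held 18.8, 32.7, 15.2 and 21.1 CPM and female GOF libraries 3.83, 7.32, 3.40 and 5.08 CPM. Male controls held 21.7, 143, 35.0 and 38.6 CPM, and male GOF libraries 5.40, 4.65, 5.80 and 7.09 CPM. Male control 2 was far above all other libraries, and no GOF library reached a control of its sex. The fall was 4.48-fold in females (-2.16 ± 0.49, adjusted p = 0.0033) and 10.4-fold in males (-3.38 ± 0.51, adjusted p = 0.000147), but 5.53-fold in males without male control 2 (-2.47 ± 0.30, adjusted p = 2.16e-05). To set its promoter beside that of Th, the 150 bases before the RefSeq start (chr19:59260728-59260877, plus strand), with both copies of the GC box GGGCGG in capitals (the second on the opposite strand), read
Slc18a2: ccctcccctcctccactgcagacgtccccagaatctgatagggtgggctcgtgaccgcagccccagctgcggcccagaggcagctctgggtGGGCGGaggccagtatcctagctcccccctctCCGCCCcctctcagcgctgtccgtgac
This window held no CRE letters, full or short, and the GC box occurred in 32.7% of all promoters.

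Slc6a2 (ENSMUSG00000055368; chromosome 8, 92960079 to 93001667, plus strand) encodes the noradrenaline transporter of the plasma membrane, which is made by sympathetic neurons as well as chromaffin cells. The neuron markers given above were lower in every GOF library than in any control of the same sex, and their part in the values of Slc6a2 was not tested. Female controls held 26.2, 47.7, 35.6 and 40.6 CPM and female GOF libraries 5.20, 12.6, 1.82 and 6.68 CPM. Male controls held 36.1, 550.9, 51.4 and 78.6 CPM and male GOF libraries 8.42, 4.65, 6.30 and 9.99 CPM. The single value of 550.9 CPM in male control 2 set most of the male mean. Slc6a2 was 5.7-fold lower with GOF in females (-2.50 ± 0.78, adjusted p = 0.0199), a call lost without female GOF 1 (adjusted p = 0.0517), without a filter on low counts (0.0571) and with the animal number range as a covariate (0.0671). In males it was 24.4-fold lower (-4.61 ± 0.84, adjusted p = 0.000694), or 7.54-fold without male control 2 (-2.92 ± 0.46, adjusted p = 0.000243).

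Gch1 (ENSMUSG00000037580; chromosome 14, 47153895 to 47189413, minus strand) encodes GTP cyclohydrolase, the first enzyme of tetrahydrobiopterin synthesis, the cofactor of tyrosine hydroxylase. Its log2 fold change was the smallest of the 8 genes that fell. Female controls held 101, 166, 158 and 113 CPM, and the 4 female GOF libraries lay close together at 71.2, 69.2, 70.7 and 73.1 CPM. Male controls held 106, 117, 59.3 and 70.5 CPM and male GOF libraries 27.4, 59.4, 36.1 and 36.6 CPM. The female groups did not overlap, while in males the highest GOF library, at 59.4 CPM, just passed the lowest control, at 59.3 CPM. The decrease was 1.89-fold in females (-0.92 ± 0.25, adjusted p = 0.00844) and 2.21-fold in males (-1.14 ± 0.25, adjusted p = 0.00232).

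Maoa (ENSMUSG00000025037; chromosome X, 16619698 to 16687818, plus strand) encodes monoamine oxidase A, a mitochondrial enzyme that deaminates noradrenaline, adrenaline and serotonin and is made by many cell types. It was the one member that rose, in females. Female controls were tightly grouped at 72.5, 75.7, 73.8 and 80.0 CPM, and female GOF libraries held 201, 216, 296 and 252 CPM. Male controls held 69.4, 244, 87.3 and 97.6 CPM and male GOF libraries 170.1, 165, 180.2 and 243 CPM. Male control 2 was as high as the highest GOF library, and the other 3 male controls were below every GOF library. Maoa rose 3.19-fold in females (log2 fold change 1.67 ± 0.31, adjusted p = 0.000672). In males the ratio of means was 1.52 and the test was not passed (0.61 ± 0.30, adjusted p = 0.126). In the same 16 libraries the 3 limma fits on FPKM did call Maoa higher in males, at 0.86 to 0.89 (adjusted p = 0.0188 to 0.0406). Without male control 2 the male ratio was 2.24 and the test was passed (1.16 ± 0.16, adjusted p = 7.32e-05), so that all 9 genes were then called in males, beside 28.2% of 18501 tested genes.

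The Gch1 and Maoa windows are shown because Gch1 fell least and Maoa went in the opposite direction. The Gch1 window (chr14:47189414-47189563, minus strand) has TGACG and 2 GC boxes in capitals, and the Maoa window (chrX:16619548-16619697, plus strand) has 1 GC box on the opposite strand.
Gch1: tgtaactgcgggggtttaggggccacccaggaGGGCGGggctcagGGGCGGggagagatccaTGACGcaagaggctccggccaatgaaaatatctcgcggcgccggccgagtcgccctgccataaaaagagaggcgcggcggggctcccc
Maoa: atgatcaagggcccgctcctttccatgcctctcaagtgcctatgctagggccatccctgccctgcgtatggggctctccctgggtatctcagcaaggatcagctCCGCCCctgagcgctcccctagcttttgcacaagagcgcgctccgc
GC boxes were found in the Th, Slc18a2, Gch1 and Maoa windows. TATAAA was found on the opposite strand in the upstream Ddc window and the Gch1 window, and on either strand in 12.4% of promoters. In Gch1 it lay outside the bases shown. The part of any motif in the response to GOF was not tested.

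**Figure D2:**
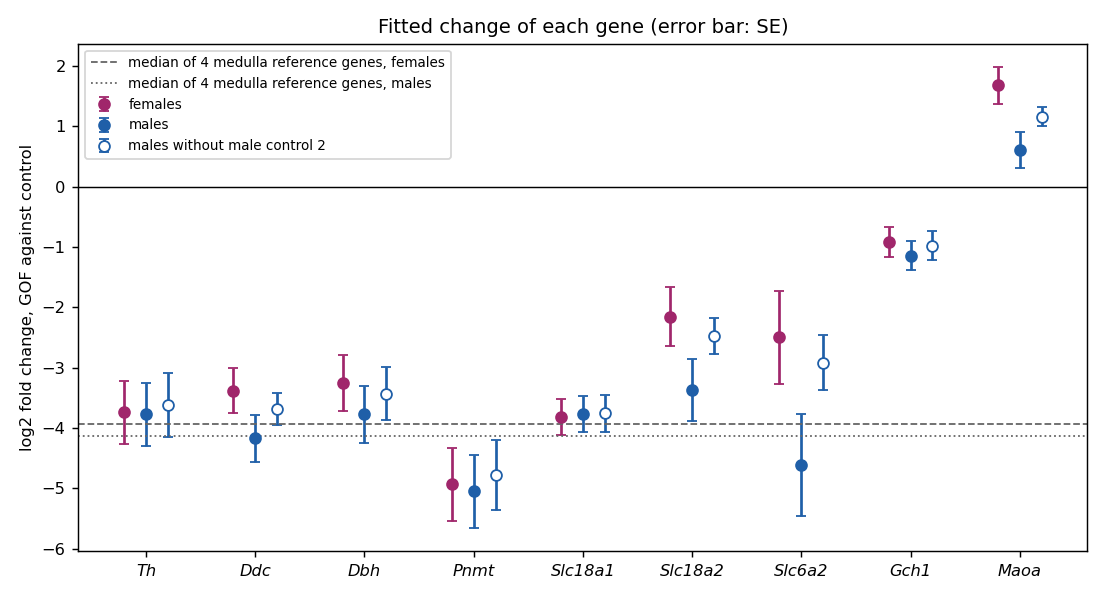
Log2 fold change of each gene, GOF against control, with its standard error, in females, in males and in males without male control 2; the horizontal lines mark the median of the 4 medulla genes in each sex. Th, Ddc, Dbh and Slc18a1 lie near those medians, Pnmt lies below them, Slc18a2 and Gch1 above them, Slc6a2 above in females (-2.50) and below in males (-4.61, or -2.92 without male control 2), and Maoa is above 0 at 1.67 in females.

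The 4 medulla markers give a scale for these differences. All 4 fell in both sexes, with median log2 fold changes of -3.94 in females and -4.13 in males. Each gene was therefore also expressed as a log2 ratio to the mean log2 CPM of these 4 within a library, a description without a test. Relative to the markers, the GOF minus control difference of Th was 0.02 in females and 0.23 in males, and that of Slc18a1 was 0.08 and 0.36. Dbh was 0.57 and 0.36, and Ddc 0.58 and 0.11. The male differences of Dbh and Ddc were 0.55 and 0.39 without male control 2. Th, Slc18a1, Dbh and Ddc therefore differed from the markers' own change by at most 0.58, although the Dbh groups did not overlap in females, nor did those of Dbh and Ddc in males once male control 2 was left out. The difference of Pnmt was -1.16 in females and -0.76 in males (-0.58 without male control 2), with GOF and control libraries overlapping in both sexes. Slc18a2 was higher by 1.81 and 1.16, and Slc6a2 by 1.19 and 0.40 (1.63 and 1.17 in males without male control 2), with no overlap between the groups in females, nor in males once male control 2 was left out. Gch1 was higher by 3.09 and 3.01 and Maoa by 5.63 and 4.92, and for both the GOF and control groups did not overlap in either sex. Such a ratio shows unequal change and does not show which of the genes changed.

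**Figure D3:**
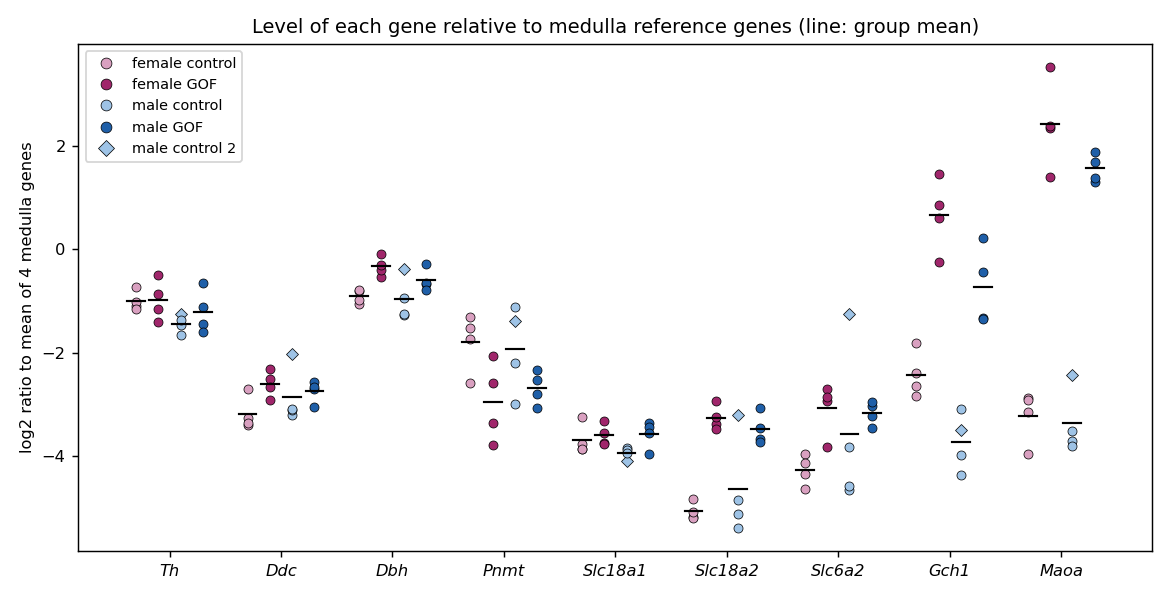
Log2 ratio of each gene to the mean of 4 medulla markers in each library, with group means as lines and male control 2 as a diamond. The 4 groups of Th and Slc18a1 lie close together, although Th is lower in every male control (-1.65 to -1.251) than in any female control (-1.152 to -0.725). The group means of Pnmt are lower in GOF with libraries that overlap those of controls. Gch1 and Maoa are higher in all GOF libraries than in any control of the same sex.

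To ask whether members of the same pathway changed unequally, 4 ratios of counts within a library were compared between genotypes within sex and between sexes within genotype, by exact 2-sided permutation over 4900 arrangements (smallest possible p = 0.000408), adjusted over the 8 tests. Pnmt relative to Dbh stood at 0.703, 0.732, 0.517 and 0.326 in female controls and 0.345, 0.177, 0.0966 and 0.121 in female GOF libraries. In males it was 1.11, 0.501, 0.521 and 0.241 in controls and 0.191, 0.272, 0.345 and 0.174 in GOF libraries. In females the lowest control lay just below the highest GOF library, and in males the lowest control lay below 2 of the GOF libraries. The ratio was lower with GOF by -1.42 on the log2 scale (-1.73 in females, -1.12 in males; exact permutation p = 0.00245, adjusted p = 0.0131). The gene of the adrenaline-making enzyme was thus lower relative to that of the preceding enzyme.

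Slc18a2 relative to Slc18a1 stood at 0.333, 0.401, 0.374 and 0.434 in female controls and 0.963, 1.21, 1.78 and 1.24 in female GOF libraries. In males it was 0.342, 1.84, 0.421 and 0.533 in controls and 0.803, 0.976, 1.39 and 1.2 in GOF libraries. Except for male control 2, every control was below every GOF library. The ratio was higher with GOF by 1.26 on the log2 scale (1.72 in females, 0.80 in males; exact permutation p = 0.00327, adjusted p = 0.0131) and by 1.52 without male control 2 (adjusted p = 0.00653). Th relative to Dbh differed by -0.34 (exact permutation p = 0.0261, adjusted p = 0.0697), and by -0.41 without male control 2 (adjusted p = 0.0131) or -0.39 without male GOF 3 (adjusted p = 0.0414). Slc6a2 relative to Dbh differed by 0.33 (exact permutation p = 0.359, adjusted p = 0.478), and by 0.62 without male control 2 (adjusted p = 0.0131). None of the 4 ratios passed the test between the sexes, with differences of -0.17 to 0.46 and adjusted p-values of 0.351 to 0.656 by exact permutation.

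**Figure D4:**
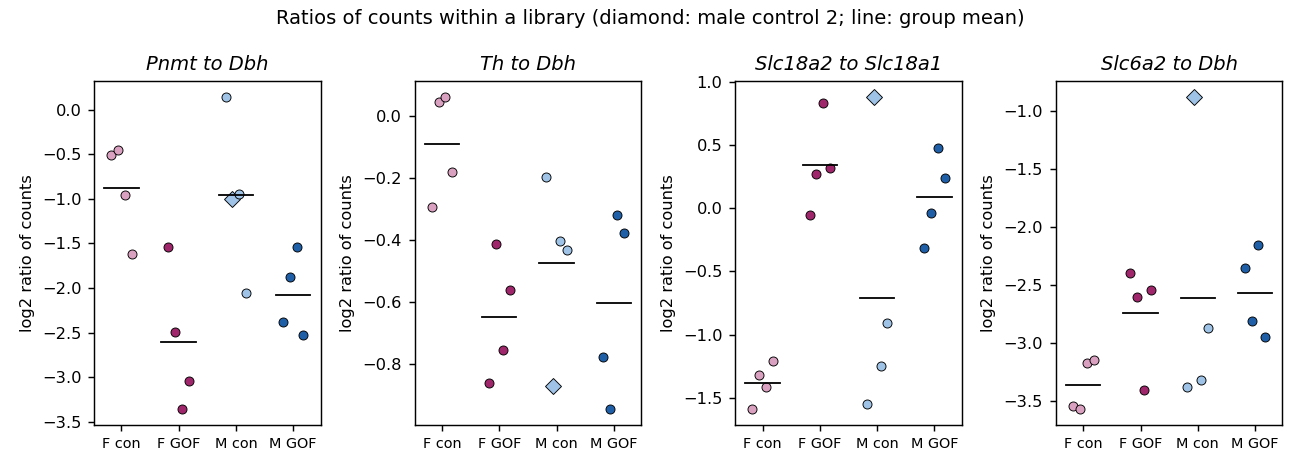
Log2 ratio of counts within each library for 4 pairs of genes, by group, with group means as lines and male control 2 as a diamond. The mean of Pnmt to Dbh is lower in GOF libraries (-2.61 against -0.88 in females), and that of Slc18a2 to Slc18a1 is higher (0.34 against -1.38 in females), with male control 2 at the level of the GOF libraries.

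Levels of different genes can be compared only per length, and the deposited FPKM values were used for this. In female controls the order of mean FPKM was Pnmt 312.5, Th 284, Dbh 271, Ddc 65.0, Gch1 41.1, Slc18a1 34.2, Maoa 17.5, Slc6a2 5.93 and Slc18a2 5.56. Between neighbours in this order, the ranges over the 4 libraries separated Dbh from Ddc, Slc18a1 from Maoa, and Maoa from Slc6a2, and no other neighbours. In male controls the order was Pnmt 459, Dbh 437, Th 328.5, Ddc 142, Slc18a1 45.1, Maoa 29, Slc6a2 28.3, Gch1 27.2 and Slc18a2 15.1, and only Ddc and Slc18a1 were separated. Without male control 2 the last 4 were Gch1 24.4, Maoa 20.0, Slc6a2 8.97 and Slc18a2 8.23, the order of the 9 genes was otherwise the same, and the ranges also separated Th from Ddc, Slc18a1 from Gch1 and Maoa from Slc6a2. In female GOF adrenals Maoa came first at 58.1 FPKM, followed by Dbh 29.8, Gch1 22.8, Th 22.3, Pnmt 10.7, Ddc 6.49, Slc18a1 2.53, Slc18a2 1.3 and Slc6a2 1.09, with Ddc and Slc18a1 separated. In male GOF adrenals the order was Maoa 48.1, Dbh 34.6, Th 26.1, Pnmt 15.2, Gch1 13.4, Ddc 8.53, Slc18a1 3.56, Slc18a2 1.60 and Slc6a2 1.27, with Ddc separated from Slc18a1 and Slc18a1 from Slc18a2. The degrading enzyme thus had the highest mean FPKM of the 9 in both GOF groups, and the adrenaline-making enzyme in both control groups. This order depends on the length used for each gene. For Pnmt (700 bases) and Th (1257 bases) it was the mean over the annotated transcripts. By mean CPM, Pnmt (228 in female and 333 in male controls) was below Th (371 and 424).

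The sexes were compared within each genotype. They shared only 1 animal number range in the sample titles, and each other range held 1 sex. Sex and range can therefore hardly be told apart in these comparisons. Among controls, Ddc (log2 difference, male against female, 1.11 ± 0.34, adjusted p = 0.0281), Slc18a2 (1.44 ± 0.47, adjusted p = 0.0403) and Slc6a2 (2.26 ± 0.75, adjusted p = 0.0425) were higher in males, beside 13.5% of tested genes that were higher, 9.89% that were lower and 23.4% that differed. All 3 calls rested on male control 2: without it the differences were 0.62 (adjusted p = 0.101), 0.53 (adjusted p = 0.222) and 0.56 (adjusted p = 0.41). Leaving out female control 1, 3 or 4 also ended all 3 calls (adjusted p = 0.0538 to 0.115), with differences that moved little, to 0.98 to 1.12 for Ddc, 1.30 to 1.42 for Slc18a2 and 2.12 to 2.30 for Slc6a2. The calls of Slc18a2 and Slc6a2 were likewise lost without female GOF 4 or any 1 male GOF library (adjusted p = 0.0515 to 0.0549), and that of Slc6a2 without female control 2 (0.0741) or female GOF 1 (0.0522). Gch1 was -0.61 ± 0.24 in males against females (adjusted p = 0.0832), and was called lower in males without male control 2 (-0.77 ± 0.25, adjusted p = 0.0437), without male GOF 2 (-0.62, adjusted p = 0.0435) and with DESeq2 on all 16 libraries (-0.63, adjusted p = 0.0489). Th (0.19), Dbh (0.67), Pnmt (0.54), Slc18a1 (0.38) and Maoa (0.72) did not pass the test, and were 0.035, 0.33, 0.26, 0.36 and 0.17 without male control 2. Maoa was called higher in males without male control 1 (0.92, adjusted p = 0.0297). Among GOF adrenals Gch1 alone passed it, lower in males by -0.83 ± 0.25 (adjusted p = 0.019), beside 16.3% of tested genes that were lower and 29.6% that differed. This call was lost without male GOF 1 (adjusted p = 0.0615), male GOF 3 (0.0566) or male GOF 4 (0.0539), and with the animal number range as a covariate (0.463). Without male control 2, Gch1 was the only member called among controls and among GOF adrenals, beside 17.8% and 29.7% of tested genes that then differed. The log2 differences of the other 8 in GOF adrenals ran from -0.35 (Maoa) to 0.43 (Pnmt).

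The difference between the sexes in the response to GOF was tested as an interaction. None of the 9 genes passed (4.21% of tested genes did, 1.59% with a positive and 2.61% with a negative estimate), 1 had an unadjusted p under 0.05, and DESeq2 also called none. Estimates, male response minus female response, ran from -2.11 for Slc6a2 (adjusted p = 0.279) to 0.04 for Slc18a1 (adjusted p = 0.966). Leaving out male control 2 moved Slc6a2 to -0.42, Slc18a2 from -1.22 to -0.31 and Ddc from -0.79 to -0.29. For Maoa, whose male test was not passed, the interaction was -1.07 ± 0.42 (adjusted p = 0.173), or -0.52 ± 0.21 without male control 2 (adjusted p = 0.208), so a difference between the sexes was not shown. Without male control 2 and female controls 1 and 3, all 9 genes were called with GOF in each sex, beside 24.1% of tested genes in females and 25.7% in males. Between the sexes none was then called among controls (8.70% of tested genes were) and 1 among GOF adrenals (27.3%).

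Male control 2 touched the members unequally. Against the mean of the other 3 male controls it held 9.95 times as much Slc6a2, 4.5 times Slc18a2, 2.88 times Maoa, 2.64 times Ddc and 2.08 times Dbh, but 1.45 times Th and 1.06 times Slc18a1. The medulla markers Chga, Chgb, Scg2 and Phox2a were at 1.31, 1.07, 0.878 and 1.82 times. In the same library the Schwann cell markers Fabp7, Sox10 and S100b were at 6.14, 2.59 and 1.22 times, the last within the range of the other male controls. The 6 neuron markers, which include peripherin and the neurofilaments, summed to 896 CPM against 65.8 to 88.5 CPM in the other male controls. Prph was at 44.4 times and Nefl at 21.1 times. The part of these transcripts in the values of Slc6a2, Slc18a2 and Maoa was not tested.

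**Figure D5:**
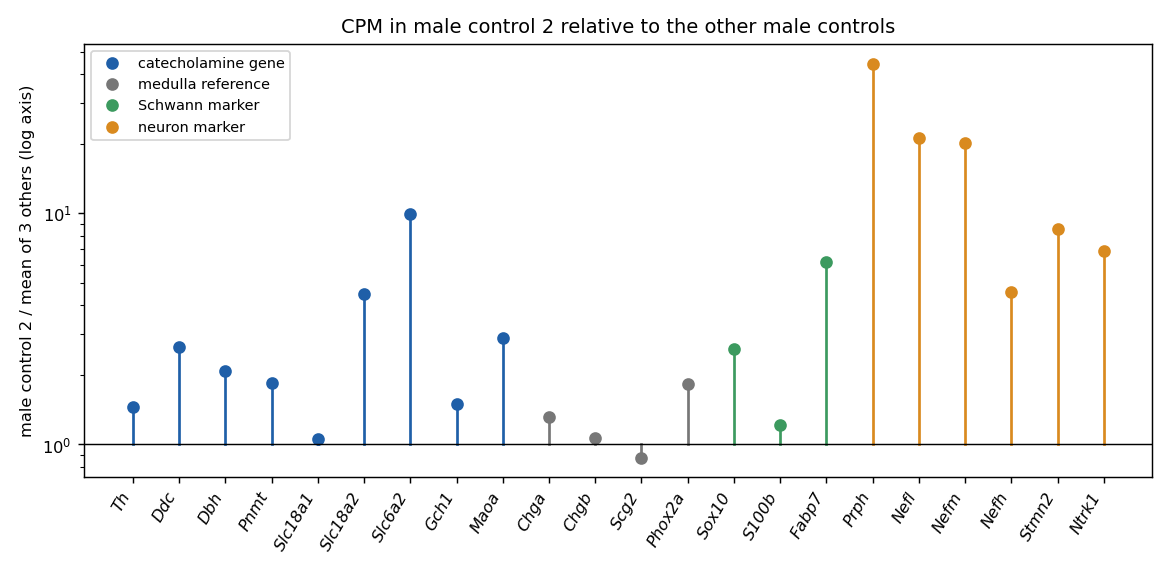
CPM in male control 2 divided by the mean of the other 3 male controls, on a log axis, for the 9 genes, 4 medulla markers, 3 Schwann cell markers and 6 neuron markers. Slc6a2 (9.95) and Slc18a2 (4.5) stand well above Th (1.45) and Slc18a1 (1.06), and Prph reaches 44.4.

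Other genes of cofactor supply were read from a list of 6. In females 3 fell and none rose, and in males 4 fell and none rose, with medians of -0.58 and -1.10, beside 20.6% of all tested genes lower in females and 21.8% in males. Pcbd1, whose product regenerates the cofactor, fell by 3.50 on the log2 scale in females (SE 0.50, adjusted p = 9.49e-05) and by 3.65 in males (adjusted p = 5.87e-05), from 8.36 to 43.7 CPM in controls to 1.14 to 1.94 CPM in GOF libraries. The highest controls were female control 1 (37.2 CPM, with kidney transcripts) and male control 2 (43.7 CPM, with liver transcripts), and the other 6 reached at most 15.5 CPM. Without male control 2 the male fall was 8.16-fold in place of 12.5-fold (log2 -3.03, adjusted p = 5.07e-05), and without female control 1 the female log2 fold change was -2.85 (adjusted p = 0.000121). Cyb561, cytochrome b561 of the granule membrane, which returns electrons for Dbh, fell by 1.54 in females (adjusted p = 5.54e-05) and 2.03 in males (adjusted p = 4.62e-06). Gchfr, which encodes the feedback regulator of the Gch1 enzyme, fell by 0.93 in females (adjusted p = 0.0201) and by 1.74 in males (adjusted p = 0.000334). The female call of Gchfr was lost without female control 1 (adjusted p = 0.0704) or female control 3 (0.0513). Pts and Spr, which encode the later enzymes of tetrahydrobiopterin synthesis and were named after their values were seen, were within -0.19 to 0.13 and did not pass the test. Qdpr, likewise named afterwards, fell in males (-0.46, adjusted p = 0.0196; females -0.24, adjusted p = 0.192), a call lost without male control 2 (0.0719), male control 3 (0.05) or male GOF 3 (0.0572), and its interaction was not passed (adjusted p = 0.569).

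Of 6 further genes of amine breakdown and uptake, 4 fell in females and 5 in males and none rose in either sex, with medians of -1.26 and -1.20. Of all tested genes 20.6% fell and 19.0% rose in females, and 21.8% fell and 15.2% rose in males. Maob, encoding the second monoamine oxidase, went opposite to Maoa: it fell by 1.55 in females (adjusted p = 0.000442), from 27.5 to 41.8 CPM in controls to 10.5 to 13.0 CPM, and by 3.22 in males (adjusted p = 1.53e-06), from 38.9 to 102 CPM to 5.33 to 8.62 CPM. The male fall was 9.29-fold, or 7.06-fold without male control 2. The fall was larger in males by the interaction test (-1.66 ± 0.38, adjusted p = 0.0252), a call kept without male control 2 (-1.27, adjusted p = 0.0161) and lost without any of female control 3, female GOF 3 or 4, or male GOF 1, 3 or 4 (adjusted p = 0.0505 to 0.0648) or without male control 2 and female controls 1 and 3 together (0.101). Slc22a3 and Slc29a4, which encode low-affinity amine carriers of the cell membrane, fell in females (-2.46 and -1.46, adjusted p = 0.000286 and 3.34e-05) and in males (-3.51 and -1.25, adjusted p = 1.6e-05 and 8.82e-05). Sult1a1, a sulfotransferase, fell in both sexes (-1.06 and -1.16, adjusted p = 0.00319 and 0.00173). Aldh2, named after its values were seen, fell in males (-1.03, adjusted p = 0.000687; females -0.45, adjusted p = 0.0694).

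Among 5 genes of other amines, Tph1, Tph2 and Slc6a3 (serotonin synthesis and the dopamine transporter), named after their values were seen, had too few counts to be tested. Slc6a4, the serotonin transporter, fell by 3.93 in both sexes (adjusted p = 4.8e-06 and 3.3e-06), from 43.4 to 128 CPM in controls to 2.63 to 9.01 CPM in GOF libraries. Hdc, which encodes histidine decarboxylase, fell by 3.25 in females (adjusted p = 4.8e-06), from 37.7 to 65.0 CPM to 3.53 to 7.45 CPM. In males Hdc held 3.61 to 7.34 CPM in controls and 4.78 to 11.0 CPM in GOF libraries (0.45, adjusted p = 0.259), and the interaction was 3.70 ± 0.44 (adjusted p = 0.000476). High Hdc was thus seen in the female controls alone among the 4 groups. Of 5 mast cell markers, the summed level was 3.84 to 8.93 CPM in female controls, 2.63 to 22.1 CPM in female GOF, 9.91 to 13.3 CPM in male controls and 0.751 to 2.40 CPM in male GOF libraries, and the part of mast cells in the values of Hdc was not tested.

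Adrenoceptors are the receptors that catecholamines act on. Of 8 adrenoceptor genes, 5 fell and none rose in females, beside 20.6% and 19.0% of all tested genes, and 6 fell and 1 rose in males, beside 21.8% and 15.2%. These counts were 6 and 0 in females and 5 and 1 in males without male control 2. Adra1a (-3.06 and -3.87 in females and males), Adra1b (-2.55 and -2.92), Adra2c (-1.72 and -3.63), Adrb1 (-1.33 and -0.88) and Adrb3 (-2.37 and -4.0) fell in both sexes, with adjusted p-values from 1.3e-06 to 0.0455. Adra2c stood at 11.96 CPM in male control 2 against 2.61 to 3.53 CPM in the other male controls, and its male fall was 12.5-fold with that library and 7.36-fold without it (log2 -2.87, adjusted p = 0.000783). The female call of Adra2c was lost without any of female controls 2 or 3 or female GOF 1, 3 or 4 (adjusted p = 0.0525 to 0.0867). The male call of Adrb1 was lost without any 1 of female controls 1, 2 or 3, female GOF 1 or 2, male controls 3 or 4 or male GOF 2, 3 or 4 (adjusted p = 0.0514 to 0.149). Adrb3 is the adrenoceptor of fat cells. Of the 5 adipocyte markers 4 fell in females and 5 in males, while Plin1 was at -0.008 in females (adjusted p = 0.981), and their part in the values of Adrb3 was not tested. Adra1d, named after its values were seen, rose in males (0.64 ± 0.18, adjusted p = 0.014). The male fall of Adra2a, likewise named afterwards (adjusted p = 0.0377), rested on male control 2 (0.23 without it, adjusted p = 0.775), at 16.3 CPM against 0.369 to 0.587 CPM in the other male controls and 0.225 to 0.828 CPM in male GOF libraries. That call was also lost without any 1 of the male GOF libraries (adjusted p = 0.0612 to 0.0987).

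The genes most like 4 of the members were taken by Pearson's r of log2 CPM over the 16 libraries, as a description with no test, since controls and GOF libraries form separate clusters that set most of the value. Th was most like Chgb (0.993), Resp18 (0.992), Epha10 (0.991), Pcsk1 (0.99) and Npy (0.99). Dbh was most like Faim2 (0.996), Hand2 (0.995), Rab3c (0.995), Npy (0.993) and Ptprn (0.993). Pnmt was most like Cpa4 (0.987), AW551984 (0.987), Pcsk1 (0.986), Necab2 (0.985) and Chga (0.984). Chgb, Chga, Npy, Pcsk1 and Ptprn encode granule proteins, peptides or peptide-processing proteins of neuroendocrine cells, and Hand2 a transcription factor of the sympathoadrenal lineage. Maoa had lower values, with Snap91 (0.917), Cyp4f14 (0.916), Nkain2 (0.898), Zfp111 (0.892) and Dhx57 (0.888). With group means removed, the closest genes were Tfap2b (0.948) and Chgb (0.943) for Th, Faim2 (0.976) and Hand2 (0.971) for Dbh, and AW551984 (0.903) and Necab2 (0.87) for Pnmt. Necab2, AW551984, Cpa4 and Pcsk1 were among the 5 closest to Pnmt on both measures. For Maoa the closest were then Islr2 (0.94) and Crot (0.937). These values include male control 2, at 244 CPM of Maoa against 69.4 to 97.6 CPM in the other male controls. The part of that library in them was not tested.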

How the data were processed

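Bulk RNA-seq of 16 mouse adrenal libraries, 4 per group, was analysed from deposited tables. Groups were taken from the sample labels. Per the labels' protocols, total RNA with an RNA integrity number of at least the submitters' limit was sequenced as paired-end reads. The submitters' processing notes name Bowtie2 2.2.3, TopHat2 2.0.12, HTSeq 0.6.1 and DESeq 1.18.0, with no role or order. The genome build and the strand setting are not given in the sources used here. The authors deposited raw read counts for 54838 genes and FPKM values, that is counts scaled by gene length and library total. Lengths recomputed from counts and FPKM matched GENCODE M21 (GRCm38), as the mean over a gene's transcripts, within 1 base in 97.8% of 34180 genes, and this annotation gave symbols and positions (54723 of the identifiers). For Slc18a2 the length used was 3803 bases against 4089 in GENCODE M21. No column was left unmapped.

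From the counts, genes passing edgeR's filterByExpr (18214) were tested with edgeR 4.0.16 (quasi-likelihood test, robust fit, TMM factors, 1 mean per group over all 16 libraries), Benjamini-Hochberg adjustment over all tested genes and a threshold of 0.05. The fit was tested on simulated data. Ratios used counts plus 0.5 and an exact 2-sided permutation test within strata. Likeness used log2 CPM with a prior count of 2 among genes with a mean of at least 1 CPM. Alternatives were DESeq2 1.42.0, RLE and upper-quartile factors, fits restricted to the groups compared, no filter, a minimum of 10 counts per library, limma 3.58.1 on log2(FPKM + 1) or log2(FPKM + 0.1), the animal number range in the sample titles as a covariate, and leaving out libraries. Library totals of 31275146 to 43003968 gave each member at least 61 counts in every library, and the spread between mice given in the text includes counting error.

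The 9 members and all lists were chosen with earlier results of these data known, and the neuron markers after their values were seen. Some genes of the lists are not reported here, and list counts and sums are without them. The text names the 9 members in every comparison, and the listed pathway genes past the threshold in both sexes or, where fewer, the 2 with the lowest p. It also names the 5 genes most like Th, Dbh, Pnmt and Maoa. Other pathway genes are marked where they appear as named afterwards, except Rnls and Adra2b. Those and the adipocyte marker Plin1 were also named after their values were seen. RefSeq promoters (GRCm38.p6) cover 250 bases before each start. Of 5 megakaryocyte markers, which summed to 7.21 to 18.2 CPM over the groups, Gp1bb was at 0 in every library.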

Additional observations from a re-analysis of the deposited data

Results flagged for a closer look

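In groups of 4 libraries, 1 library can lie far from the other 3. Of 156 groups checked over 35 genes and 4 ratios, 15 held such a library (its gap to the next library, over the whole range, above Dixon's critical value), and chance marks about 1 in 20 groups. Among the members, all such libraries were male control 2: Slc18a2 at 143 CPM against 21.7 to 38.6 CPM in the other male controls, Slc6a2 at 550.9 against 36.1 to 78.6 CPM, and Maoa at 244 against 69.4 to 97.6 CPM. Male control 2 was also apart for Pcbd1 (43.7 CPM), Slc29a4 (87.7 CPM), Adra2a (16.3 CPM), Adra2b (9.73 CPM) and Adra2c (11.96 CPM), high in each. Female control 2 stood high for Chga (3449 CPM against 1786 to 2049.9 CPM), Phox2a (66.1 CPM) and Slc29a4 (39.5 CPM). It also held the highest female control values of Th, Ddc, Dbh, Pnmt, both Slc18 genes, Slc6a2 and Gch1. The remaining libraries were apart for single genes: Pts in male GOF 2 (52.2 CPM), Maob in female GOF 3 (13.0 CPM), Rnls in female control 4 (7.21 CPM, low) and Adra2c in female GOF 2 (0.961 CPM).

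The response to GOF differed between the sexes by the interaction test for 2 genes of the 9 members and the pathway lists, neither a member: Maob (-1.66 on the log2 scale, male minus female) and Hdc (3.70). Of all tested genes 4.21% were called by this test, 1.59% with a positive and 2.61% with a negative estimate. Among the cell type markers, all 4 tested mast cell markers (-5.30 to -3.42) and 3 of 5 adipocyte markers (-2.55 to -1.92) were also called. Each had a lower log2 fold change in males than in females. None of the tested medulla, cortex, Schwann cell, megakaryocyte, liver or kidney tubule markers was called.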

How the results depend on the processing

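The number of members called with GOF was 8 or 9 in females and 8 or 9 in males under every alternative. Among controls, the 3 members called between the sexes became 0 with no filter, with only the groups compared, with limma on log2(FPKM + 1) unfiltered, with the animal number range as a covariate and without the 3 libraries with liver or kidney transcripts, 1 with either filtered limma fit and 4 with DESeq2; leaving out 1 library gave 0 to 4. Among GOF adrenals, the 1 call became 0 with no filter and with the covariate, and 0 to 1 leaving out 1 library. Because the sexes shared only 1 animal number range, the covariate can hardly be told apart from sex. No interaction was called under any alternative.

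Among the members and the ratios, reversals concerned uncalled values. Outside them, the male log2 fold change of Adra2a was -2.94 and called with all 16 libraries, and 0.23 without male control 2. Without the 3 libraries the sex difference of Th in controls was -0.25, and the interactions were 0.40 (Th), 0.075 (Dbh) and 0.38 (Pnmt). The Th interaction (-0.03) was 0.006 with DESeq2, 0.003 with RLE factors, 0.07 with upper-quartile factors, 0.018 with no filter, 0.073 with limma on log2(FPKM + 1), filtered or not, and 0.093 on log2(FPKM + 0.1). In the same limma fits the Pnmt interaction was 0.167 and 0.265, and that of Slc18a1 was -0.011 on log2(FPKM + 1). Leaving out 1 library moved the interactions of Th from -0.53 to 0.64, Dbh from -0.88 to 0.009, Pnmt from -0.58 to 0.38 and Slc18a1 from -0.18 to 0.34, and the sex differences in GOF of Th from -0.35 to 0.82, Dbh from -0.22 to 0.67 and Slc6a2 from -0.15 to 0.69. For ratios, Th to Dbh (GOF minus control) ran from -0.41 to -0.29 leaving out 1 library and was -0.42 without the 3, Slc6a2 to Dbh ran from 0.21 to 0.62 and was 0.62, and Slc18a2 to Slc18a1 (male minus female) ran from -0.052 to 0.35 and was -0.11. The cause was not tested. No paired analysis was possible because replicate numbers follow accession order only and mark no shared litter or day. With 4 mice per group the spread between mice limits what the sex comparisons can show, and in bulk tissue the source of each transcript is not resolved.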
